A study of Rattus norvegicus with 9 samples.

Results

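Genes for the folding, translocation and degradation of proteins in the endoplasmic reticulum (ER) were followed in the tibialis anterior muscle (TIB) of rats that were fed, in phase 2 of fasting (P2) or in phase 3 of fasting (P3). The list holds 48 genes, chosen by symbol for their known roles and with earlier results of these data known. Of these, 43 were measured, among 14506 genes with a probe set that carries 1 symbol. Each of the 43 had 1 probe set. Ern1, Ero1b, Edem1, Edem3 and Derl2 were not analysed here. RNA from the TIB of 9 male Sprague Dawley rats had been hybridised to arrays of the Affymetrix Rat Gene 1.0 ST design, with 3 rats per group and an array for each. The rats were bought at an age of 10 weeks, acclimatized for at least 1 week in individual cages on a standard diet, and had water throughout. Fed rats had a full stomach when they were killed, P2 rats were fasted until body protein was spared and lipids were the main fuel, and P3 rats were fasted until body protein was increasingly mobilized. P3 rats had therefore also fasted for longer than P2 rats, and phase and duration cannot be told apart. Levels below are log2 intensities of single rats. The value after ± is the standard error of a log2 fold change, with n = 3 in every group. A transcript is said to have changed where the limma test, adjusted by the Benjamini-Hochberg method over the 29215 probe sets of the table, gave an adjusted p under 0.05.

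Secreted and membrane proteins enter the ER through the Sec61 channel, are folded there by chaperones of the Hsp70 and Hsp90 families, by lectin chaperones, by enzymes that form disulfide bonds and by prolyl isomerases, and are sent back to the cytosol for degradation by the proteasome when folding fails. The sensors IRE1 (gene Ern1), ATF6 and PERK (gene Eif2ak3) respond to unfolded protein in the lumen. IRE1 splices the Xbp1 transcript, ATF6 is cleaved into a transcription factor, and PERK slows translation. Muscle fibres hold a specialised ER, the sarcoplasmic reticulum, whose calcium stores share lumenal proteins such as calreticulin with the secretory pathway.

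Across the arrays, medians lay between 5.80 and 5.90, and Pearson's r over all probe sets was 0.987 to 0.994 within groups and 0.957 to 0.987 between them. The fast fibre markers Acta1, Ckm and Myh4 lay between 13.41 and 13.98 on every array. Of 9 measured fast fibre markers 2 fell in P3 (Pvalb and Tnni2). Myh2 was at -0.58 ± 0.20 in P3 versus Fed and did not pass (adjusted p = 0.061). The mean log2 intensity of the 9 was 13.37 to 13.39 on the fed arrays. It was 13.21 to 13.25 on the P2 arrays and 12.94 to 13.00 on the P3 arrays. Every P3 rat lay below every fed rat for 7 of the 9, including Acta1 and Ckm, beside 20.1% of all probe sets. The RNA came from whole homogenized muscle, which also holds connective tissue, vessels and immune cells, so that fewer cells of a type and less RNA per cell cannot be told apart. Of 11 measured markers of fibro-adipogenic cells, the collagen-producing cells of muscle, 8 fell in P3 versus Fed. In P2, 2 of them fell and 1 rose. Of 12 macrophage markers 1 rose in P3 (Cd163, by 1.40 ± 0.33), and none of 9 lymphocyte and plasma cell markers changed in either comparison with Fed by limma. The mean log2 intensity of those 9 was 4.45 to 4.58 on every array, below the array medians, so that they say little on these cells. Of 9 endothelial markers Pecam1 rose (0.91 ± 0.17, adjusted p = 0.00326) and Eng fell (-0.73 ± 0.11, adjusted p = 0.000742) in P3 versus Fed. Beside these marker counts, 15.8% of all probe sets were called upward and 13.4% downward in P3 versus Fed. For the genes with 1 symbol it was 18.2% and 17.1%. In P2 versus Fed the shares were 5.13% and 4.15% of all probe sets, and 7.07% and 5.57% of those genes.

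Some of these genes share a promoter element through which ATF6 and XBP1 act together with the factor NF-Y. The ER stress response element (ERSE) was searched as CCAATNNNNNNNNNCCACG, and a shorter form, ERSE-II, as ATTGG and CCACG with 1 base of any kind between them, on both strands of 250 bases of RefSeq sequence (build GRCr8). Those bases end at the start of the entry that the promoter table gives first for a gene, which need not be the outermost start of the gene. Of the 48 genes, 38 matched an entry of the table. ERSE was found in 8 of the 38 (21.1%) and in 21 of all 27457 promoters (0.0765%). ERSE-II was found in 2 of the 38, Herpud1 and Hyou1, and in 12 of all promoters (0.0437%). The 7 measured genes with ERSE are shown because the same letters stand in the windows of genes that rose, fell and did not pass the test in these muscles. Herpud1 is shown for ERSE-II. The ERSE-II matches of Hyou1, a gene that did not pass, are not shown. The stretches shown for Creld2 and Herpud1 lie inside the annotated span of the gene, and the others lie outside it. Each line runs 5′ to 3′ along the gene's strand, with the match in capitals. Where the element lies on the other strand, the capitals are its reverse complement.
Xbp1 (chr14:84604538-84604596, plus strand): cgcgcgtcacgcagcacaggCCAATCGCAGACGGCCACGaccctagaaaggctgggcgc
Dnajc3 (chr15:102432514-102432572, plus strand): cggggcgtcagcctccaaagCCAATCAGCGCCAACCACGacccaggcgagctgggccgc
Canx (chr10:35158049-35158107, minus strand): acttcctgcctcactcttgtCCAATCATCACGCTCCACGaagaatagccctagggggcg
Hspa5 (chr3:38452953-38453011, plus strand): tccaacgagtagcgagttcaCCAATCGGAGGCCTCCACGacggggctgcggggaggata
Hsp90b1, farther match (chr7:23012431-23012489, minus strand): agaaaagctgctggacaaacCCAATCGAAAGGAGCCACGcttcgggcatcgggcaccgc
Hsp90b1, nearer match (chr7:23012327-23012385, minus strand): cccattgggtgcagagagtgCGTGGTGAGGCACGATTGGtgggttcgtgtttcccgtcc
Calr (chr19:40213117-40213173, plus strand): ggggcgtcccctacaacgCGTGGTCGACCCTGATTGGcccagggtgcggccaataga
Creld2 (chr7:121789219-121789277, plus strand): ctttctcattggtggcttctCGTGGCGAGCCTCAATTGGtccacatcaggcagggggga
Herpud1, ERSE-II (chr19:10614801-10614851, minus strand): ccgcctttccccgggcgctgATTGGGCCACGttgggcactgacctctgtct

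Of the 43 genes, 26 changed in P3 versus Fed, 17 upward and 9 downward, which is 60.5% of them, against 29.2% of all probe sets (15.8% upward and 13.4% downward) and 35.3% of the 14506 genes with 1 symbol (18.2% and 17.1%). In P2 versus Fed 13 changed, 6 upward and 7 downward, or 30.2% against 9.28% of all probe sets (5.13% upward and 4.15% downward) and 12.6% of the genes with 1 symbol (7.07% and 5.57%). Between the phases, in P3 versus P2, 13 were higher and 6 lower, or 44.2% against 16.0% of all probe sets (8.50% higher and 7.52% lower) and 21.8% of the genes with 1 symbol (11.4% and 10.4%). All 3 P3 rats lay above all 3 fed rats for 19 genes and below them for 13, and groups stood apart in this way for 42.4% of all probe sets (22.3% above and 20.1% below). For P2 and Fed it was 13 genes above and 14 below, beside 24.2% of all probe sets (13.3% and 10.9%), and for P3 and P2 it was 16 above and 9 below, beside 27.4% (13.8% and 13.6%). The median log2 fold change of the 43 was 0.05 in P3 versus Fed, beside 0.00 over all probe sets. For P2 versus Fed both medians were 0.01. The P2 mean lay between the Fed and P3 means for 29 of the 43 genes (67.4%), and for 55.2% of all probe sets. Because the list was drawn up with earlier results of these data known, its shares beside those of all probe sets are a description and no test. Both comparisons with Fed share the fed rats, and the values of a gene in them are not independent. Single rats moved the P2 counts most. Without Fed 1, Fed 2 or P2 2 there were 3 higher genes in P2 versus Fed, without Fed 1 or P2 3 there were 2 lower ones, and without Fed 3 or P2 2 there were 4 lower ones. In P3 versus P2, 8 were higher without P3 2, and 3 were lower without P2 2, P2 3, P3 1 or P3 3.

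Counted by role, Xbp1 and the sensor Atf6 rose in P3 and the sensor Eif2ak3 did not pass. In the Hsp70 and Hsp90 system 4 of 10 rose, among the degradation genes 5 of 8 rose, and no gene of either group fell by limma in P3 versus Fed. Of the prolyl isomerases 3 of 4 fell in P3. Of the lectin chaperones and disulfide enzymes 4 of 9 rose and 4 fell in P3, and of the translocon genes 2 of 9 rose and 2 fell. In the same comparison 15.8% of all probe sets were called upward and 13.4% downward, and 18.2% and 17.1% of the genes with 1 symbol.

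**Figure D1:**
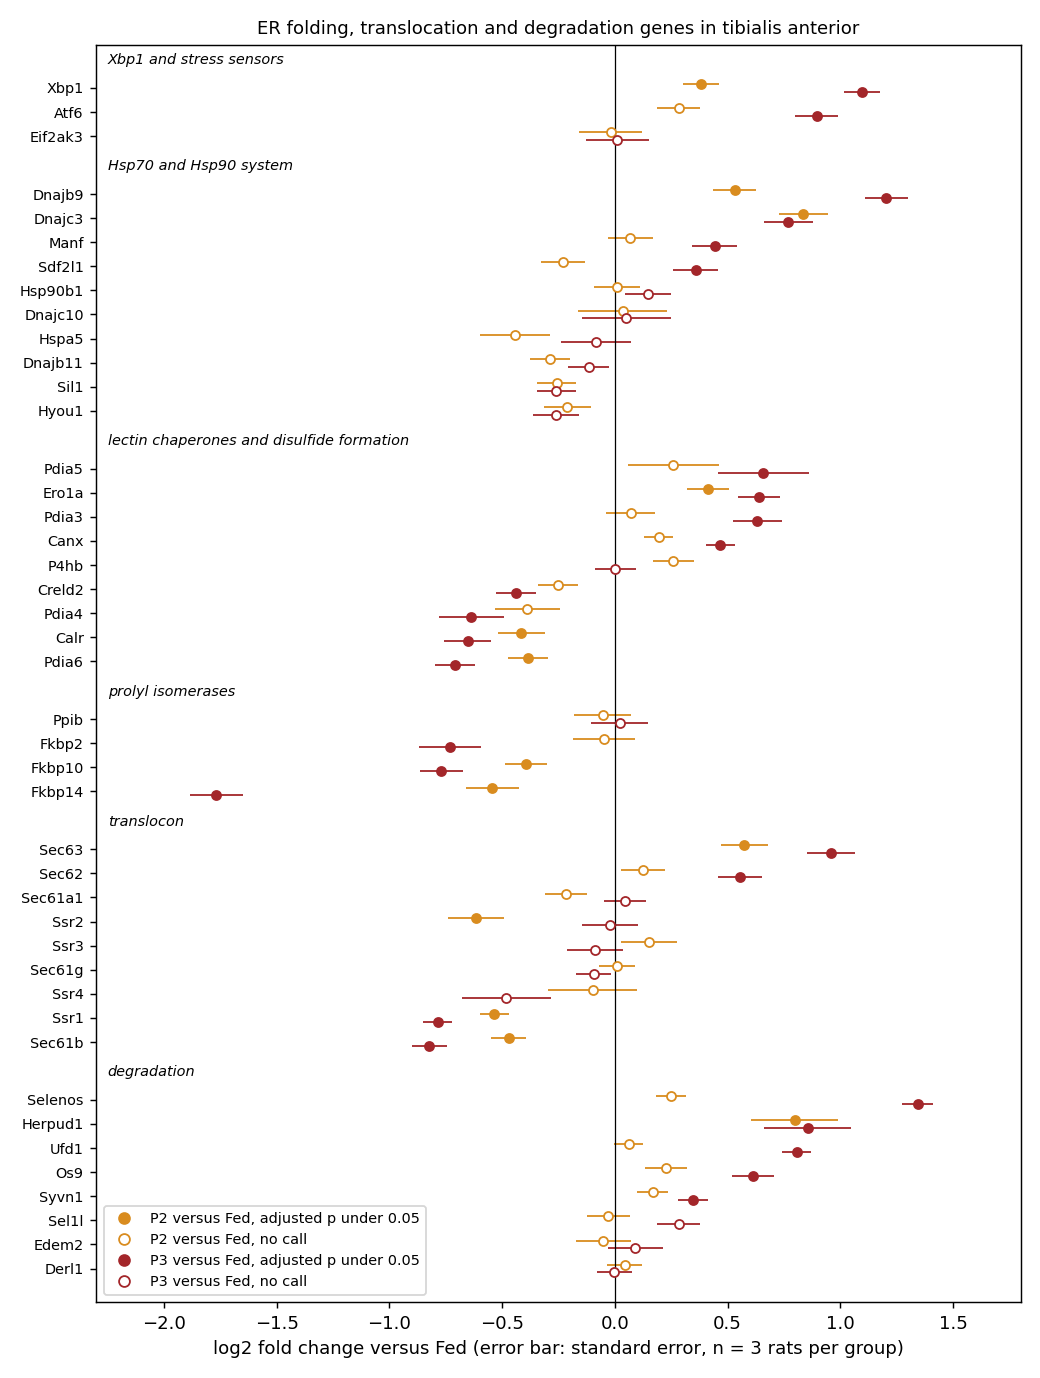
Log2 fold change of the 43 genes versus Fed, grouped by role, for P2 (orange) and P3 (red), with the standard error as bars and filled points for adjusted p under 0.05. Fkbp14 at -1.77 and Selenos at 1.34 in P3 mark the ends of the range.

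Xbp1, the transcription factor that IRE1 activates by splicing, rose in steps through the phases. Its log2 intensity was 9.36, 9.53 and 9.60 in fed rats, 9.89, 9.93 and 9.81 in P2 rats and 10.58, 10.67 and 10.53 in P3 rats. Every P3 rat lay above every P2 rat, and every P2 rat above every fed rat. Xbp1 rose by 1.10 ± 0.08 in P3 versus Fed (adjusted p = 1.27e-05), which is 2.14-fold, by 0.38 ± 0.08 in P2 versus Fed (adjusted p = 0.0206) and by 0.71 ± 0.08 in P3 versus P2 (adjusted p = 0.000408). The probe set covers the transcript as a whole and does not separate its spliced from its unspliced form.

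Atf6, the sensor that is itself cut into a transcription factor, had 8.50, 8.51 and 8.71 in fed rats, 8.79, 8.90 and 8.87 in P2 rats and 9.60, 9.31 and 9.50 in P3 rats. No group overlapped another. Atf6 rose by 0.90 ± 0.10 in P3 versus Fed (adjusted p = 0.000108) and by 0.61 ± 0.10 in P3 versus P2 (adjusted p = 0.00225), and the P2 versus Fed value of 0.28 ± 0.10 did not pass (adjusted p = 0.112). Eif2ak3, which encodes PERK, had 7.44, 7.17 and 7.45 in fed rats, 7.10, 7.54 and 7.38 in P2 rats and 7.54, 7.19 and 7.37 in P3 rats. All 3 groups overlapped. The Eif2ak3 change was 0.01 ± 0.14 in P3 versus Fed, with a 95% interval of -0.30 to 0.33 (adjusted p = 0.965). The Xbp1 call in P2 versus Fed was lost without Fed 1, Fed 2 or P2 2 (adjusted p = 0.0603, 0.0562 and 0.0659).

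**Figure D2:**
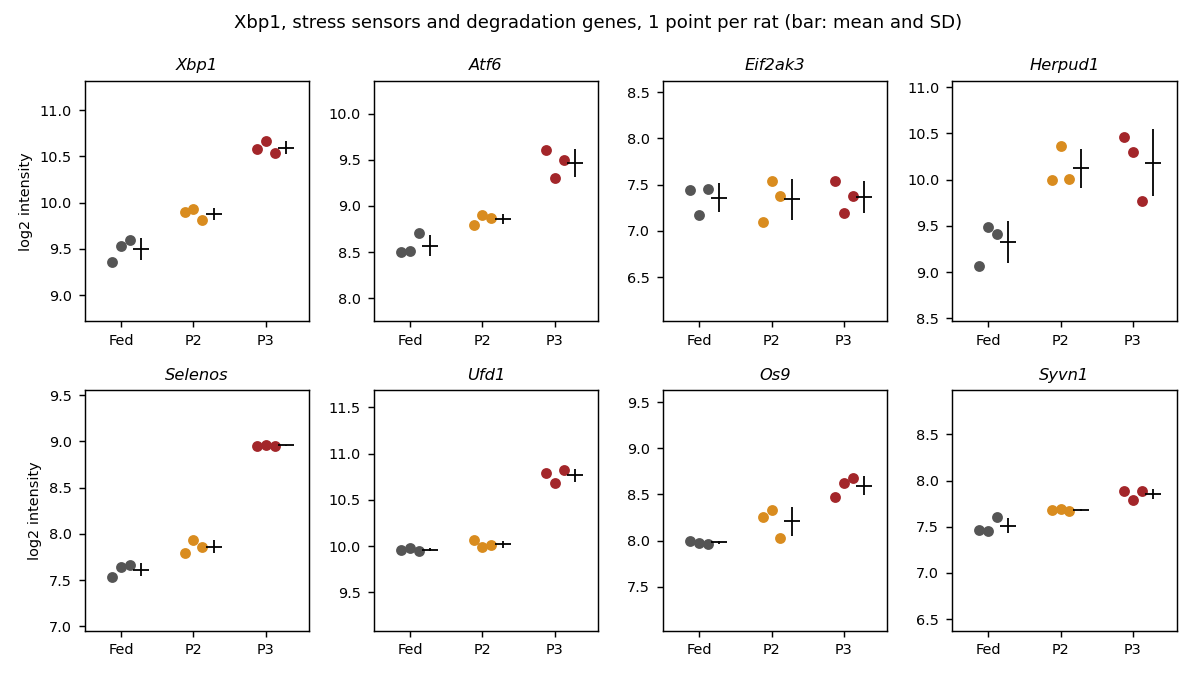
Log2 intensity of Xbp1, the sensors Atf6 and Eif2ak3, and 5 degradation genes by group (Fed, P2, P3), with 1 point per rat and the mean and SD beside it. The P3 rats of Xbp1, Selenos and Ufd1 lie above all P2 rats, and the groups of Eif2ak3 overlap.

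Hspa5, or BiP, the Hsp70 chaperone of the ER and the gene most often read as its stress marker, passed in no comparison. It had 10.82, 10.83 and 10.70 in fed rats, 9.96, 10.66 and 10.41 in P2 rats and 10.79, 10.66 and 10.66 in P3 rats. P2 rats lay below all fed rats, P2 1 farthest, and P3 rats overlapped the fed rats. Hspa5 had a log2 fold change of -0.08 ± 0.15 in P3 versus Fed, with a 95% interval of -0.43 to 0.27 (adjusted p = 0.743), and of -0.44 ± 0.15 in P2 versus Fed (adjusted p = 0.125). Without P2 2 the P2 decrease passed, at -0.60 (adjusted p = 0.0336), and so did P3 versus P2, at 0.52 (adjusted p = 0.0332).

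Hsp90b1, or GRP94, the Hsp90 chaperone of the ER, had 10.86, 10.84 and 10.91 in fed rats, 10.66, 11.05 and 10.94 in P2 rats and 11.10, 11.00 and 10.95 in P3 rats. P3 rats lay just above the fed rats, and P2 rats on both sides of them. Its log2 fold change was 0.15 ± 0.10 in P3 versus Fed (95% interval -0.09 to 0.38, adjusted p = 0.344) and 0.01 ± 0.10 in P2 versus Fed (adjusted p = 0.968). Hyou1 and Sil1, which exchange the nucleotide of BiP, were at -0.26 ± 0.10 and -0.26 ± 0.09 in P3 versus Fed and did not pass (adjusted p = 0.0922 and 0.0526). Sil1 passed without Fed 1 (adjusted p = 0.0287) or P2 1 (adjusted p = 0.0465).

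Among the cochaperones of BiP, Dnajb9 and Dnajc3 rose in both phases. Dnajb9, a J-domain protein that binds BiP and IRE1, had 8.09, 8.24 and 8.04 in fed rats, 8.48, 8.76 and 8.73 in P2 rats and 9.32, 9.25 and 9.42 in P3 rats. No 2 groups overlapped, and P3 rats were highest. Dnajb9 rose by 1.21 ± 0.10 in P3 versus Fed (2.31-fold, adjusted p = 1.85e-05), by 0.53 ± 0.10 in P2 versus Fed (adjusted p = 0.00987) and by 0.67 ± 0.10 in P3 versus P2 (adjusted p = 0.00136). Dnajc3, or p58IPK, a J-domain protein also known as an inhibitor of PERK, had 8.63, 8.48 and 8.65 in fed rats, 9.62, 9.24 and 9.41 in P2 rats and 9.23, 9.39 and 9.46 in P3 rats. P2 and P3 rats overlapped each other, and all of them lay above the fed rats. Dnajc3 rose by 0.84 ± 0.11 in P2 versus Fed (adjusted p = 0.00211) and by 0.77 ± 0.11 in P3 versus Fed (adjusted p = 0.000616). Its difference between the phases was -0.07 ± 0.11 (95% interval -0.31 to 0.18, adjusted p = 0.787).

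Manf, a small ER protein that is secreted when ER calcium or folding is disturbed, had 7.95, 7.77 and 7.68 in fed rats, 7.95, 7.94 and 7.73 in P2 rats and 8.13, 8.34 and 8.27 in P3 rats. P3 rats lay above all others. Manf rose by 0.44 ± 0.10 in P3 versus Fed (adjusted p = 0.00866) and by 0.37 ± 0.10 in P3 versus P2 (adjusted p = 0.0328). That difference between the phases was lost without Fed 2, P2 2, P2 3, P3 2 or P3 3, with adjusted p between 0.0511 and 0.111. Sdf2l1, a partner of the J-domain protein Dnajb11, rose by 0.36 ± 0.10 in P3 versus Fed (adjusted p = 0.0228) and lost that call without Fed 1, Fed 3, P3 1 or P3 2 (adjusted p between 0.0624 and 0.0693). Dnajb11 and the reductase Dnajc10 were at -0.12 ± 0.09 and 0.05 ± 0.20 in P3 versus Fed and did not pass.

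Among the lectin chaperones, which hold glycoproteins until they are folded, the membrane-bound and the soluble form went opposite ways. Calr, calreticulin, the soluble lectin and a calcium store of the lumen, had 10.80, 10.80 and 10.71 in fed rats, 10.57, 10.17 and 10.32 in P2 rats and 10.02, 10.21 and 10.11 in P3 rats. All fasted rats lay below the fed rats. Calr fell by 0.65 ± 0.10 in P3 versus Fed (adjusted p = 0.0013), and it fell by 0.42 ± 0.10 in P2 versus Fed (adjusted p = 0.0404). That P2 call was lost in 8 of the 9 fits that left out an array, with adjusted p up to 0.124, and held without P2 1. Canx, calnexin, the membrane-bound lectin, rose by 0.47 ± 0.07 in P3 versus Fed (adjusted p = 0.000607), with arrays at 11.58, 11.74 and 11.65 in P3 rats, against 11.24, 11.16 and 11.16 in fed rats. Pdia3, the disulfide isomerase that works with both lectins, rose by 0.63 ± 0.11 (adjusted p = 0.00211). Its P3 rats, between 11.03 and 11.08, lay above all fed rats.

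The disulfide isomerases did not move as 1 group. Pdia6, which also limits the activity of IRE1 and PERK, had 9.48, 9.47 and 9.33 in fed rats, 9.06, 8.98 and 9.09 in P2 rats and 8.67, 8.88 and 8.60 in P3 rats. The groups stood apart, fed rats highest. Pdia6 fell by 0.71 ± 0.09 in P3 versus Fed (adjusted p = 0.00029), and it fell by 0.39 ± 0.09 in P2 versus Fed (adjusted p = 0.0282). The P2 call was lost without Fed 1, Fed 2, P2 2 or P2 3, with adjusted p between 0.0677 and 0.0984. Pdia5, a disulfide isomerase that acts on ATF6, had 6.41, 6.57 and 6.90 in fed rats, 6.71, 7.29 and 6.66 in P2 rats and 7.57, 7.09 and 7.19 in P3 rats. P3 rats lay above the fed rats, and P2 rats overlapped both groups. Pdia5 rose by 0.66 ± 0.20 in P3 versus Fed (adjusted p = 0.0365), a call that was lost without Fed 1, Fed 2, P3 1 or P3 3 (adjusted p between 0.0682 and 0.126).

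Of the others in this group, Ero1a, the oxidase that recharges the disulfide isomerases, rose by 0.64 ± 0.09 in P3 versus Fed (adjusted p = 0.000739) and by 0.41 ± 0.09 in P2 versus Fed (adjusted p = 0.0261). The P2 call of Ero1a was lost without Fed 1, Fed 2, Fed 3, P2 2 or P2 3 (adjusted p between 0.0614 and 0.0857). Pdia4 and Creld2, a secreted ER protein with isomerase activity, fell by 0.64 ± 0.15 and by 0.44 ± 0.09 in P3 versus Fed (adjusted p = 0.00932 and 0.00467). P4hb, the founding disulfide isomerase and a subunit of collagen prolyl hydroxylase, was at 0.00 ± 0.09 in P3 versus Fed (95% interval -0.20 to 0.21) and at 0.26 ± 0.09 in P2 versus Fed (adjusted p = 0.127).

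Among the genes with ERSE, shown above with their sequences, Xbp1 and Dnajc3 rose in both phases and Canx rose in P3. Calr fell in both phases and Creld2 fell in P3, and Hspa5 and Hsp90b1 passed in neither. Herpud1, with ERSE-II, rose in both phases, and Hyou1, which also holds ERSE-II, passed in neither. A match of letters is a description of the promoter and says nothing on whether a factor was bound.

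**Figure D3:**
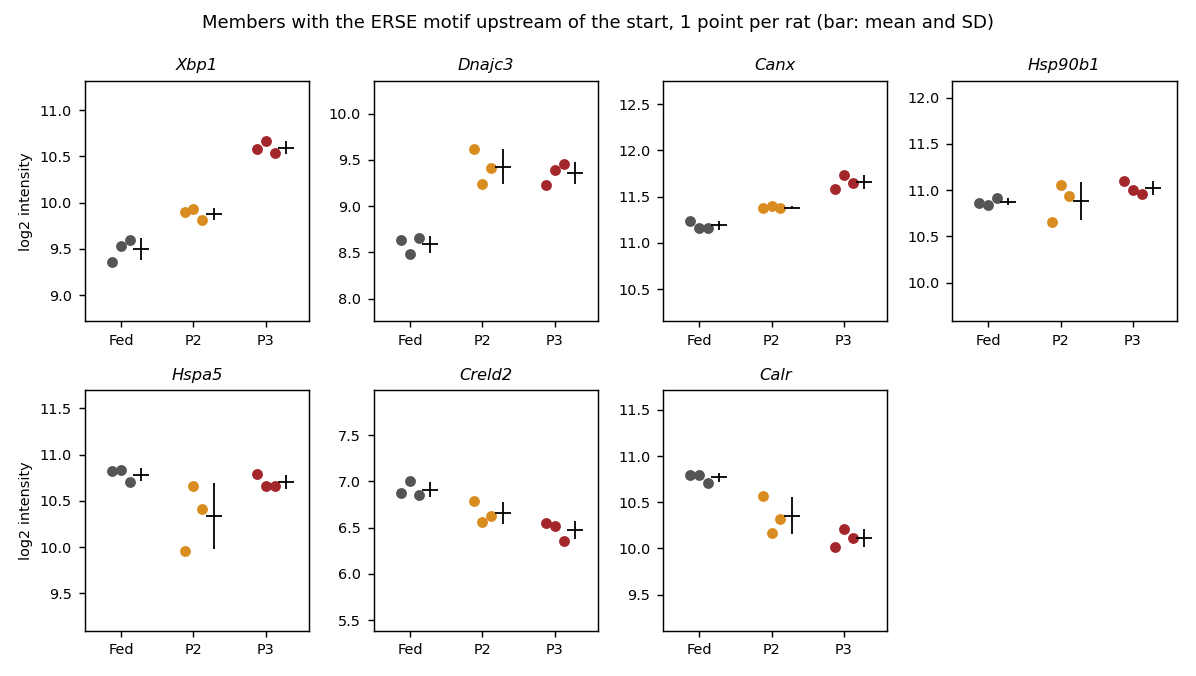
Log2 intensity of the 7 measured genes whose window of 250 bases holds ERSE, by group (Fed, P2, P3), with 1 point per rat and the mean and SD beside it. Xbp1 rises from group to group, Dnajc3 is up in P2 and P3, and Calr lies below the fed rats in both phases.

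Fkbp14 had the largest change of the 43 genes in P3 versus Fed. It encodes a prolyl isomerase of the ER needed for collagen folding, and had 8.13, 8.07 and 8.33 in fed rats, 7.49, 7.74 and 7.67 in P2 rats and 6.21, 6.57 and 6.45 in P3 rats. The groups stood apart, fed rats highest. Fkbp14 fell by 1.77 ± 0.12 in P3 versus Fed (3.41-fold lower, adjusted p = 6.83e-06), fell by 0.54 ± 0.12 in P2 versus Fed (adjusted p = 0.0218) and fell by 1.23 ± 0.12 in P3 versus P2 (adjusted p = 0.00016). The P2 call was lost without Fed 1, Fed 3 or P2 3 (adjusted p = 0.0559, 0.0763 and 0.0613).

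Fkbp10, another isomerase and chaperone of collagen, had 6.96, 6.79 and 7.17 in fed rats, 6.55, 6.63 and 6.55 in P2 rats and 6.21, 6.21 and 6.19 in P3 rats. The P3 rats differed by less than 0.1 among themselves and lay below all others. Fkbp10 fell by 0.77 ± 0.09 in P3 versus Fed (adjusted p = 0.000255), and it fell by 0.39 ± 0.09 in P2 versus Fed (adjusted p = 0.0328), a call that held in 1 of the 9 fits without an array, the one without Fed 2, with adjusted p up to 0.104 in the others. Fkbp2 had 7.27, 7.31 and 7.00 in fed rats, 7.12, 7.33 and 6.99 in P2 rats and 6.70, 6.40 and 6.30 in P3 rats. Fed and P2 rats overlapped and P3 rats lay below both. This small isomerase of the lumen fell by 0.73 ± 0.14 in P3 versus Fed (adjusted p = 0.00314) and fell by 0.68 ± 0.14 in P3 versus P2 (adjusted p = 0.00837). Ppib, cyclophilin B, which also serves collagen folding, was at 0.02 ± 0.13 in P3 versus Fed (95% interval -0.27 to 0.31).

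Most markers of the cells that make collagen fell in the same comparison, 8 of the 11 fibro-adipogenic markers measured. Of all probe sets, 13.4% were called lower there. The mean log2 intensity of the 11 was 9.73 to 10.01 on the fed arrays, 8.73 to 9.62 on the P2 arrays and 7.70 to 8.62 on the P3 arrays, led by Col1a1 (-4.18 ± 0.57 in P3 versus Fed) and Col3a1 (-3.81 ± 0.36). Dcn, Gsn and Pdgfra, also on that list, were at 0.39 ± 0.15, 0.19 ± 0.17 and -0.39 ± 0.29 in P3 versus Fed and did not pass (adjusted p = 0.0924, 0.482 and 0.377). Gsn rose by 0.74 ± 0.17 in P2 versus Fed (adjusted p = 0.03). Of 12 other genes for collagen folding and modification, 6 fell in P3 versus Fed and none rose by limma, with a median of -0.29 over the list, beside 13.4% of all probe sets and 17.1% of the genes with 1 symbol called lower. Serpinh1, the collagen chaperone HSP47, fell by 2.81 ± 0.11 in P3 versus Fed and fell by 1.42 ± 0.11 in P2 versus Fed (adjusted p = 4.95e-07 and 0.000224). Plod1, P3h3 and Crtap, which hydroxylate collagen or assist in it, fell by 0.79 ± 0.09, by 0.72 ± 0.13 and by 0.55 ± 0.12 in P3 versus Fed. The part of these markers in the values of the prolyl isomerases, and of the other genes that fell, was not tested.

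Of the 3 subunits of the Sec61 channel in the translocon, Sec61b changed. Sec61a1, which forms the pore, had 8.26, 8.21 and 8.28 in fed rats, 7.96, 8.24 and 7.91 in P2 rats and 8.31, 8.37 and 8.22 in P3 rats. The groups overlapped, and Sec61a1 was at 0.05 ± 0.09 in P3 versus Fed (95% interval -0.17 to 0.26, adjusted p = 0.773). Without P2 2 its difference between the phases passed, at 0.36 (adjusted p = 0.0165). Sec61b, the beta subunit, had 7.58, 7.50 and 7.60 in fed rats, 7.09, 7.14 and 7.04 in P2 rats and 6.76, 6.84 and 6.61 in P3 rats. Fed rats were highest and P3 rats lowest, without overlap. Sec61b fell by 0.82 ± 0.08 in P3 versus Fed (1.77-fold lower, adjusted p = 5.01e-05), fell by 0.47 ± 0.08 in P2 versus Fed (adjusted p = 0.00658) and fell by 0.35 ± 0.08 in P3 versus P2 (adjusted p = 0.0134). Sec61g, the gamma subunit, was at -0.09 ± 0.08 in P3 versus Fed (95% interval -0.27 to 0.09).

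Sec63 and Sec62, the channel's partners in the import of finished chains, both rose in P3. Sec63, which also recruits BiP through a J-domain, had 8.87, 8.59 and 8.68 in fed rats, 9.10, 9.40 and 9.37 in P2 rats and 9.63, 9.77 and 9.63 in P3 rats. The groups stood apart, P3 rats highest. Sec63 rose by 0.96 ± 0.11 in P3 versus Fed (1.95-fold, adjusted p = 0.000135) and by 0.58 ± 0.11 in P2 versus Fed (adjusted p = 0.0108). Its difference between P3 and P2, 0.39 ± 0.11 (adjusted p = 0.0375), was lost without Fed 3 or any of P2 1, P2 3 and the 3 P3 rats, with adjusted p between 0.0582 and 0.122. Sec62, which is also a receptor for the autophagy of ER, rose by 0.56 ± 0.10 in P3 versus Fed (adjusted p = 0.00209).

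The translocon-associated protein (TRAP) complex helps chains to enter the channel, and of its 4 subunits Ssr1 and Ssr2 changed. Ssr1, the alpha subunit, had 9.48, 9.53 and 9.61 in fed rats, 9.02, 9.00 and 8.99 in P2 rats and 8.69, 8.77 and 8.80 in P3 rats. The groups stood apart, fed rats highest. Ssr1 fell by 0.79 ± 0.06 in P3 versus Fed (adjusted p = 2.21e-05), and it fell by 0.54 ± 0.06 in P2 versus Fed (adjusted p = 0.00148). The further step in P3 versus P2, -0.25 ± 0.06 (adjusted p = 0.028), was lost without any 1 of the P2 or P3 rats (adjusted p between 0.0523 and 0.0916).

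Ssr2, the beta subunit, was the 1 gene of the 43 that passed downward in P2 and upward between the phases. Its log2 intensity was 8.74, 8.54 and 8.52 in fed rats, 8.18, 7.95 and 7.82 in P2 rats and 8.45, 8.79 and 8.49 in P3 rats. P2 rats lay below all others, and P3 rats overlapped the fed rats. Ssr2 fell by 0.62 ± 0.12 in P2 versus Fed (adjusted p = 0.0165), was higher by 0.59 ± 0.12 in P3 versus P2 (adjusted p = 0.0108) and was at -0.02 ± 0.12 in P3 versus Fed (95% interval -0.31 to 0.26). The P2 decrease lost its call without Fed 1, P2 2 or P2 3 (adjusted p = 0.0607, 0.0509 and 0.0631), while the difference between the phases kept it in all 9 such fits. Adipocyte markers also set P2 apart. The mean log2 intensity of 9 of them was 6.31 to 6.39 on the fed arrays, 6.95 to 7.33 on the P2 arrays and 6.20 to 6.39 on the P3 arrays, and their part in the Ssr2 values was not tested. Ssr3 and Ssr4, the gamma and delta subunits, were at -0.09 ± 0.12 and -0.48 ± 0.20 in P3 versus Fed (adjusted p = 0.667 and 0.106). Ssr4 passed without P2 1 (adjusted p = 0.0127) or P2 2 (adjusted p = 0.047).

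**Figure D4:**
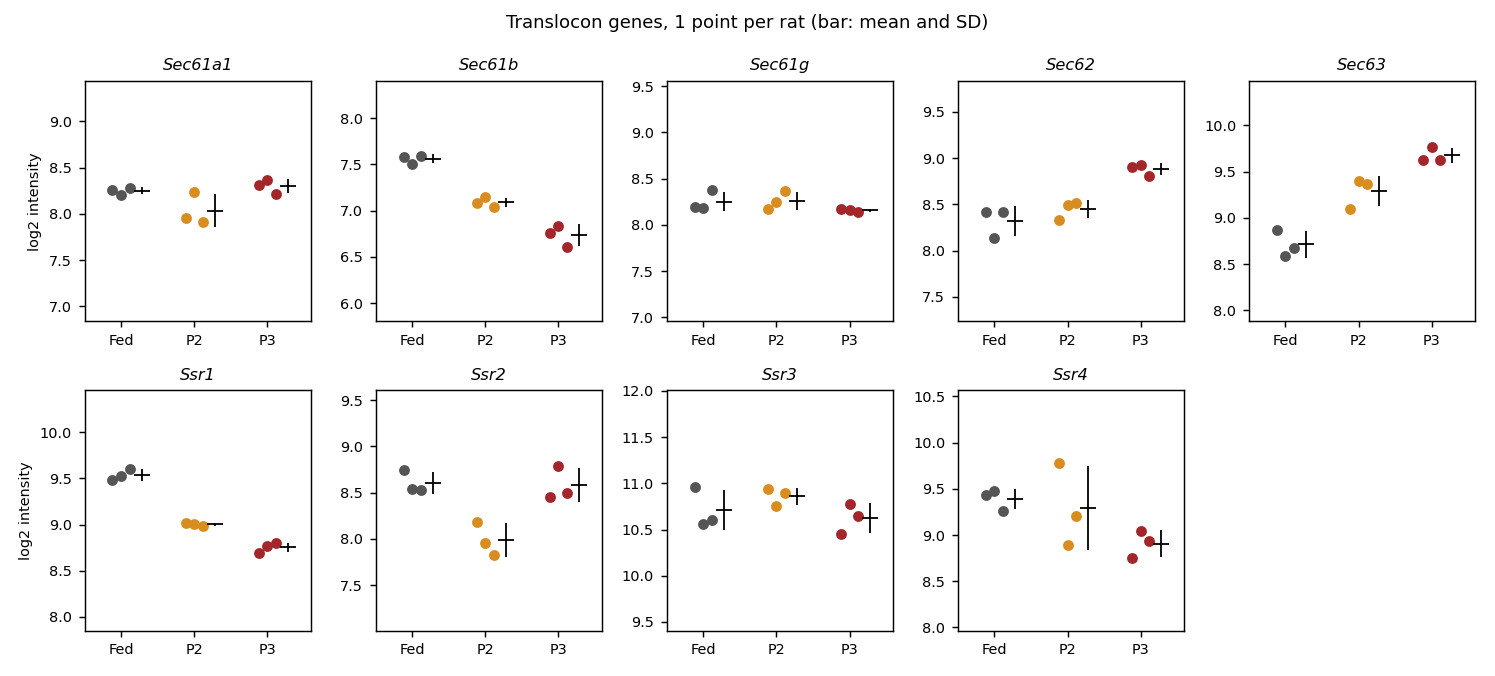
Log2 intensity of the 9 translocon genes by group (Fed, P2, P3), with 1 point per rat and the mean and SD beside it. Sec61b and Ssr1 step down through the phases, Sec62 and Sec63 lie highest in P3, and Ssr2 is low in the P2 rats.

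The degradation genes rose or did not pass. Selenos, a selenoprotein of the ER membrane that recruits the ATPase p97 to the exit site, had 7.54, 7.64 and 7.67 in fed rats, 7.79, 7.93 and 7.86 in P2 rats and 8.96, 8.97 and 8.95 in P3 rats. P3 rats lay within 0.1 of each other and above all P2 rats, which lay above the fed rats. Selenos rose by 1.34 ± 0.07 in P3 versus Fed (2.54-fold, adjusted p = 1.5e-06) and by 1.09 ± 0.07 in P3 versus P2 (adjusted p = 1.68e-05). Its P2 versus Fed value of 0.25 ± 0.07 did not pass (adjusted p = 0.0528), except without P2 1 (adjusted p = 0.0399).

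Ufd1, the cofactor with which p97 pulls ubiquitinated proteins from the membrane, had 9.96, 9.97 and 9.95 in fed rats, 10.06, 9.99 and 10.01 in P2 rats and 10.79, 10.69 and 10.82 in P3 rats. The step lay between P2 and P3. Ufd1 rose by 0.81 ± 0.06 in P3 versus Fed (adjusted p = 1.86e-05) and by 0.75 ± 0.06 in P3 versus P2 (adjusted p = 9.18e-05), and P2 versus Fed was at 0.06 ± 0.06 (95% interval -0.08 to 0.21). Herpud1, a membrane protein that assembles the degradation complex, had 9.07, 9.49 and 9.41 in fed rats, 10.37 in P2 2 and 10 to the second decimal in the other two P2 rats, and 10.47, 10.30 and 9.77 in P3 rats. Fasted rats lay above all fed rats, P3 3 nearest to them, and P2 and P3 overlapped. Herpud1 rose by 0.86 ± 0.19 in P3 versus Fed (adjusted p = 0.00876) and by 0.80 ± 0.19 in P2 versus Fed (adjusted p = 0.0343). The P2 call of Herpud1 was lost without any 1 of the 3 fed rats, P2 2, P2 3 or P3 2 (adjusted p between 0.0512 and 0.111).

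Values at the core of the HRD1 ubiquitin ligase were smaller. Syvn1, the ligase itself, and Os9, a lectin that hands over misfolded glycoproteins, rose by 0.35 ± 0.07 and by 0.61 ± 0.09 in P3 versus Fed (adjusted p = 0.00408 and 0.000928). Sel1l, the adaptor between them, was at 0.28 ± 0.10 (adjusted p = 0.0581), with all P3 rats above the fed rats, and passed without P2 1 (adjusted p = 0.0238). Edem2, a mannosidase that marks glycoproteins for disposal, and Derl1, a membrane component of the exit channel, were at 0.09 ± 0.12 and 0.00 ± 0.08 in P3 versus Fed, with 95% intervals of -0.19 to 0.37 and -0.18 to 0.17.

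Genes outside the list, in lists also chosen with earlier results of these data known, gave further values for each step. Of 25 other measured degradation genes of the ER, 15 rose in P3 and 10 rose in P2, each against Fed, and none fell by limma in either, beside 15.8% and 5.13% of all probe sets, and 18.2% and 7.07% of the genes with 1 symbol, called upward. The median log2 fold change over these 25 was 0.52 in P3 and 0.21 in P2, beside 0.00 and 0.01 over all probe sets. Nploc4, which binds Ufd1 in the p97 complex, had 10.27, 10.26 and 10.21 in fed rats, 10.81, 10.86 and 10.88 in P2 rats and 11.84, 11.83 and 11.93 in P3 rats. No group overlapped another. Nploc4 rose by 1.62 ± 0.06 in P3 versus Fed (adjusted p = 4.11e-07) and by 0.60 ± 0.06 in P2 versus Fed (adjusted p = 0.000722), a phase in which Ufd1 was at 0.06 ± 0.06. The ubiquitin-conjugating enzymes Ube2j1 and Ube2g2 rose by 1.56 ± 0.09 and by 1.41 ± 0.08 in P3 versus Fed, and Ubxn4, a p97 adaptor of the ER membrane, rose by 1.44 ± 0.09. With the values quantile normalized once more, 14 of the 25 rose in P3 versus Fed and 1 fell, and 8 rose in P2 versus Fed. With array medians subtracted, 15 rose in P3 and 8 in P2, each against Fed.

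Among 17 measured regulators of the unfolded protein response outside the list, 6 rose and 4 fell in P3 versus Fed, and 4 rose and 2 fell in P2 versus Fed, with medians of 0.11 and 0.07 over the list. In P3 versus Fed 18.2% of the genes with 1 symbol were called upward and 17.1% downward, and in P2 versus Fed 7.07% and 5.57%. Ppp1r15a, or GADD34, which reverses the translation block set by PERK and other kinases, had 6.75, 7.09 and 7.11 in fed rats, 8.18, 8.09 and 7.81 in P2 rats and 9.86, 9.58 and 9.80 in P3 rats. It rose by 2.77 ± 0.13 in P3 versus Fed (adjusted p = 1.39e-06) and by 1.04 ± 0.13 in P2 versus Fed (adjusted p = 0.00206), and no group overlapped another. On the same list Atf4 rose by 1.04 ± 0.09 in P3 versus Fed (adjusted p = 3.33e-05). Ddit3 fell by 0.89 ± 0.21 in that comparison (adjusted p = 0.0108). Creb3, a membrane-bound transcription factor of the ER, rose by 1.54 ± 0.09 in P3 versus Fed, and its relative Creb3l1 fell by 1.37 ± 0.16. Wfs1, wolframin, an ER membrane protein, fell by 1.21 ± 0.14 in P3 versus Fed.

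Of 23 other folding enzymes of the ER, 6 rose and 8 fell in P3 versus Fed (median 0.06), and 1 rose and 2 fell in P2 versus Fed (median -0.01), beside the shares of all genes just given. The single rise in P2 was lost under both the second quantile normalization and median centring. Ppic, cyclophilin C, fell by 1.34 ± 0.22 in P3 versus Fed, and Lman1, a cargo receptor from the ER to the Golgi, fell by 1.00 ± 0.11. Hspa13, a member of the Hsp70 family, rose by 1.25 ± 0.13, and Tmx1, a membrane-bound thioredoxin of the ER, rose by 0.95 ± 0.12. Of 22 genes for protein targeting, signal peptidase and N-glycosylation, 4 rose and 5 fell in P3 versus Fed (median -0.12), and 1 rose and 1 fell in P2 versus Fed (median -0.16), the rise being lost under both scalings and 3 falling after the second quantile normalization. These compare with 18.2% upward and 17.1% downward in P3, and 7.07% and 5.57% in P2, of the genes with 1 symbol. Srp72 and Srp68, proteins of the signal recognition particle, rose by 0.75 ± 0.10 and by 0.62 ± 0.10 in P3 versus Fed. Of the same particle, Srp9 fell by 0.50 ± 0.13 (adjusted p = 0.0178) and Srp14 was at 0.00 ± 0.11. Sec11c, a catalytic subunit of signal peptidase, fell by 0.73 ± 0.14.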

How the data were processed

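RNA of 9 TIB muscles, 3 each from fed, P2 and P3 rats, had been measured on 1-colour arrays. The authors made the deposited log2 values from the array intensity data with RMA in Affymetrix Expression Console 1.1 (sketch quantile normalization, median polish over the probes of a probe set), which compresses large ratios and makes array totals alike. Of 29215 probe sets, 15310 carry 1 symbol, 323 several and 13582 none. Where a gene has several, the one with the highest mean stands for it. The 3 group means were estimated from all 9 arrays together in limma 3.58.1 under R 4.3.3 (lmFit, eBayes). The number of arrays limits the precision. The p-values set a group difference against the spread between rats within groups, pooled over the 3 groups and moderated over the probe sets. With 1 array for each rat, that spread includes the error of the measurement. The fit was tested on simulated data in which 29015 of the 29215 probe sets were unchanged. There a log2 change of 0.5 was called in 38.8% of cases in P2 versus Fed. The share was 28.4% in P3 versus Fed and 29.9% in P3 versus P2. A log2 change of 1 was called in 88.1%, 89.6% and 91% of cases in the same order. Far more probe sets were called in the measured data, 29.2% of them for P3 against Fed, 9.28% for P2 against Fed and 16% between the phases. The Benjamini-Hochberg cutoff was thus less strict there than in the simulation, and the simulated shares do not carry over to these data. How often a change of 0.5 was missed here is not known, and a value near 0.5 that did not pass can still be a missed change. Promoters came from RefSeq (GRCr8), and Python 3.11.15 with matplotlib 3.10.9 drew the figures.

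The members and the other lists were chosen with earlier results of these data known. Values per rat are given for Xbp1 and the sensors, Hspa5, Hsp90b1 and Sec61a1, for the 3 most changed members called in P3 versus Fed and the most changed one called in P2 versus Fed in each of 6 role groups, and for a member called in opposite directions. Canx, Pdia3, Sdf2l1 and the genes outside the list with values per rat were added after their values were seen. The alternatives were a second quantile normalization, centring of each array on its median, a filter at a mean log2 of at least 5, an intensity trend with robust moderation, the arrays of the groups compared alone, the replicate number as a block, the ANOVA and Tukey test of the methods, the mean of a gene's probe sets, and each array left out in turn. The other lists were refitted under the 2 scalings alone.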

Additional observations from a re-analysis of the deposited data

Results flagged for a closer look

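Sdf2l1, a lumenal partner of J-domain cochaperones, lay on opposite sides of its fed level in the 2 phases. It had 5.93, 6.02 and 5.97 in fed rats, 5.79, 5.71 and 5.74 in P2 rats and 6.36, 6.52 and 6.12 in P3 rats. All P2 rats lay below and all P3 rats above the fed rats. The fed and P2 values lay near the array medians of 5.80 to 5.90. Sdf2l1 differed between the phases, P3 versus P2, by 0.59 ± 0.10 on the log2 scale (limma, adjusted p = 0.00333). It was flagged because that difference passed with opposite signs against Fed, so this p is no separate support. Its log2 fold change was -0.23 ± 0.10 in P2 versus Fed, which did not pass (adjusted p = 0.211). In P3 versus Fed it was 0.36 ± 0.10 (adjusted p = 0.0228), a call lost without Fed 1, Fed 3, P3 1 or P3 2.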

How the results depend on the processing

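No change of a called gene turned its sign under any alternative, and of the single values 2146 kept their side of the threshold, 149 lost and 27 gained a call. Leaving out 1 array gave 3 to 7 genes higher and 2 to 6 lower in P2 versus Fed, 15 to 18 higher and 9 to 11 lower in P3 versus Fed, and 8 to 14 higher and 3 to 6 lower in P3 versus P2. The P2 counts were at their lowest without Fed 1, Fed 2 or P2 2 (3 higher) and without Fed 1 or P2 3 (2 lower), where the share of all probe sets called also fell, to 5.38% without Fed 2. All 9 such fits kept 24 of the 26 calls in P3 versus Fed, 5 of the 13 in P2 versus Fed and 11 of the 19 between the phases. The ANOVA and Tukey test of the methods at p under 0.001 called 1 higher and 2 lower in P2 versus Fed, 8 higher and 5 lower in P3 versus Fed, and 4 higher and 1 lower in P3 versus P2. The sample titles number the rats within each group and give no pairing. Deviations of rats with the same number from their group means had r between -0.24 and 0.12. Without rats of different numbers set beside them, these values cannot decide whether the number marks a shared step. With the number as a replicate block, the genes lower in P2 versus Fed numbered 4 and those lower in P3 versus P2 numbered 3, and the other counts stayed within 1.5 times. The mean of a gene's probe sets gave the same values, since each gene has 1. The other alternatives left every count of members within 1.5 times. Signal over background was not analysed here.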

Other observations

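Receptors that deliver ER to autophagy and proteins that shape its membrane also changed. Of 10 measured, 5 rose and 2 fell in P3 versus Fed (median 0.30), and 2 rose and none fell in P2 versus Fed by limma. Of the genes with 1 symbol, 18.2% were called upward and 17.1% downward in P3, and 7.07% and 5.57% in P2. With the values quantile normalized once more, 4 rose and 2 fell in P3 and 2 rose and 1 fell in P2, and with array medians subtracted 5 rose and 1 fell in P3. Calcoco1, a soluble receptor for ER autophagy, had 9.53, 9.52 and 9.50 in fed rats, 9.91, 10.07 and 10.03 in P2 rats and 10.77, 10.74 and 10.77 in P3 rats. The groups stood apart, and Calcoco1 rose by 1.24 ± 0.07 in P3 versus Fed (adjusted p = 2.07e-06). Tex264 and Atl3, both ER autophagy receptors, rose by 0.85 ± 0.12 and by 0.79 ± 0.16. Rtn4, a reticulon that curves ER tubules, had 11.54, 11.45 and 11.41 in fed rats, 11.23, 10.95 and 11.21 in P2 rats and 9.44, 9.41 and 9.22 in P3 rats. All P2 rats lay below the fed rats, and Rtn4 was at -0.34 ± 0.10 in P2 versus Fed, which did not pass (adjusted p = 0.0705). The larger step lay between P2 and P3, and Rtn4 fell by 2.11 ± 0.10 in P3 versus Fed (adjusted p = 1.08e-06).

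Adipocyte markers followed another course than the collagen markers. Of 9, 4 rose in P2 versus Fed and 2 fell in P3 versus Fed, where 7.07% of the genes with 1 symbol were called upward in P2 and 17.1% downward in P3. Adipoq, adiponectin, had 5.13, 5.40 and 5.64 in fed rats, 7.86, 6.63 and 6.95 in P2 rats and 5.27, 5.79 and 6.09 in P3 rats. P2 rats lay above all others. Adipoq rose by 1.76 ± 0.32 in P2 versus Fed (adjusted p = 0.00987) and was at 0.33 ± 0.32 in P3 versus Fed (adjusted p = 0.508).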
